A study of Mus musculus with 6 samples.

Results

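The genes described here encode the signalling core of the T cell receptor and its coreceptors: Cd3d, Cd3e, Cd3g, Cd4, Cd8a, Cd8b1, Cd5, Cd6, Lck and Zap70. They were taken as every probe set (a group of short probes for a single transcript) whose platform annotation names exactly 1 gene, with that gene among these 10. The annotation named 12 such probe sets for 9 of the 10 genes, out of 45037 probe sets and 17097 genes in all. It named none for Lck, which is not analysed here. Cd8a had 3 probe sets, Cd4 had 2 and the other genes had 1 each. Probe sets of a gene share the same RNA and are not replicates of each other.

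Whole lungs came from male BALB/c mice, 10 weeks old per the labels. The control group of 3 mice lived in normal air and the hydrogen group of 3 mice in air holding 2% molecular hydrogen, for 3 weeks. Each lung was measured on its own array, and the design asks which transcripts differ after the exposure. All values are log2 expression values, so a difference of 1 is a doubling, and the number of arrays limits their precision.

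The T cell receptor recognises a peptide held by an MHC molecule but has no signalling tail of its own. The CD3 chains carry the signalling motifs, which the kinase LCK phosphorylates and to which the kinase ZAP70 then binds. LCK is brought to the receptor by the coreceptors, CD4 on cells that see MHC class II and CD8 on cells that see MHC class I. CD5 and CD6 are related scavenger-receptor proteins on the T cell surface that tune the strength of this signal. In lung, T cells lie in the airway wall, the alveolar septa and the blood held in the vessels, and make up a minor part of the tissue.

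Sftpc, the surfactant protein of alveolar type 2 cells, had a mean log2 value of 13.16, and Ager of type 1 cells and Scgb1a1 of club cells had 12.60 and 13.22, transcripts that lung tissue is known for. The endothelial gene Pecam1 had 8.56. The medians of the arrays were 4.75 to 4.76 in controls and 4.84 to 4.85 in the hydrogen group. The spread of the arrays, as SD over their probe sets, was 1.9 to 1.92 in controls and 1.8 to 1.81 in the hydrogen group. Median and spread both followed the groups, so a difference in scaling between them cannot be told apart from the exposure. The labels name no batch, so a batch that followed the groups cannot be told apart from the exposure. A call below means an adjusted p under 0.05 in limma, with Benjamini-Hochberg adjustment over all probe sets. With 3 arrays per group, 0.1 is the smallest two-sided p that an exact permutation test can reach.

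Transcripts of the receptor complex and coreceptors were higher in the hydrogen group for 6 of the 9 measured genes and lower for none. Cd6, Cd8a, Cd3d, Cd5, Cd4 and Zap70 rose by 0.20 to 0.70 on the log2 scale, while Cd3e, Cd3g and Cd8b1 did not pass the threshold. By probe set, 7 of 12 were higher, 0 lower and 5 not past the threshold. Many other probe sets changed too: 24.3% of all probe sets on the array were higher and 22.8% lower. The median log2 fold change was 0.24 over the 12 probe sets and 0.02 over all probe sets. In 8 of the 12, every hydrogen array lay above every control array, a pattern found in 30.9% of all probe sets. In whole tissue, more T cells and more of a transcript per T cell cannot be told apart.

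**Figure D1:**
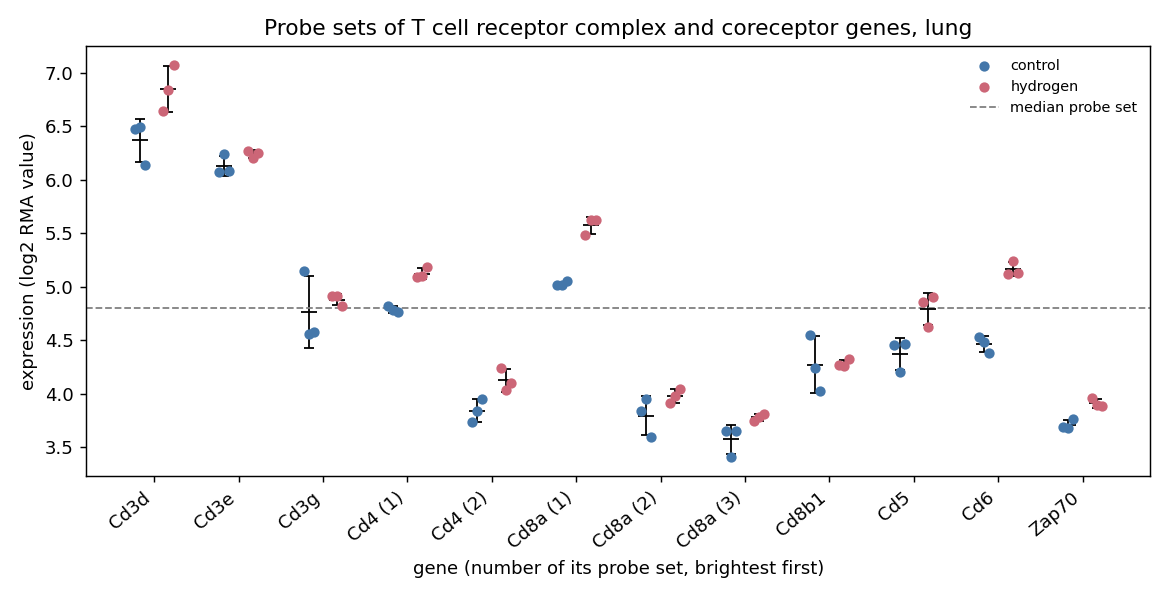
Log2 expression value (vertical axis) of each of the 12 probe sets on each of the 6 arrays, with control mice in blue and hydrogen mice in red. Bars show mean ± SD over 3 mice, and the dashed line marks the median probe set at 4.80. The hydrogen points of Cd3d, Cd4, Cd5, Cd6, Zap70 and 2 probe sets of Cd8a lie wholly above the control points, and those of Cd3e, Cd3g, Cd8b1 and the second Cd8a probe set overlap with them.

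Of the CD3 chains, Cd3d rose and the other chains did not pass. Cd3d, whose protein pairs with CD3 epsilon in the complex, was 6.48, 6.49 and 6.14 in control replicates 1, 2 and 3 and 6.64, 6.84 and 7.07 in hydrogen replicates 1, 2 and 3. The groups did not overlap, although hydrogen replicate 1 lay only just above the highest controls. The log2 fold change was 0.48 (SE 0.13, limma adjusted p = 0.0149), a 1.39-fold higher level. Cd3e, the chain shared by each CD3 pair, was 6.07, 6.24 and 6.08 in controls and 6.27, 6.20 and 6.25 in the hydrogen group. Control replicate 2 lay within the range of the hydrogen arrays. The log2 fold change of Cd3e was 0.11 (95% interval -0.04 to 0.26, adjusted p = 0.186). Cd3e was called higher once the arrays were quantile normalised anew (0.25, adjusted p = 0.0181) or fitted by cyclic loess (0.22, adjusted p = 0.0282). Those settings even out the range of the arrays or their trend with brightness. With each array centred on its median, Cd3e was 0.02 (limma adjusted p = 0.821). Cd3g, the other partner of CD3 epsilon, was 5.15, 4.56 and 4.58 in controls and 4.91, 4.91 and 4.82 in the hydrogen group. Control replicate 1 was the highest of all 6 arrays for this gene. The log2 fold change of Cd3g was 0.12 (95% interval -0.21 to 0.44, adjusted p = 0.529) over all arrays and 0.31 without control replicate 1 (adjusted p = 0.00881). That was the only 1 of 16 alternatives in which Cd3g passed. Cyclic loess gave 0.00, median centring 0.03 and the fit without control replicate 2 gave 0.02.

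The 3 CD3 genes lie next to each other on chromosome 9, and Cd3g and Cd3d are read away from each other, with 1355 bases between the start sites that RefSeq gives on GRCm38.p6. The 250 bases before each start are shown because these neighbours differed in their calls, with the window before Cd8a, another gene that rose, for comparison. Capitals mark the core that ETS factors bind, GGAA, or TTCC where it lies on the other strand. The windows are chr9:44981536-44981785 on the plus strand for Cd3d, chr9:44980432-44980681 on the minus strand for Cd3g, chr9:45009612-45009861 on the minus strand for Cd3e and chr6:71373177-71373426 on the plus strand for Cd8a.
Cd3d: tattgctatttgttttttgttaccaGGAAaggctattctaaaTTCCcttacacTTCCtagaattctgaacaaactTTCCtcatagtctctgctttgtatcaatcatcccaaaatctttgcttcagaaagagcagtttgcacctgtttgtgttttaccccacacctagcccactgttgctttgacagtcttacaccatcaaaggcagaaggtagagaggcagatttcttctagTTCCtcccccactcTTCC
Cd3g: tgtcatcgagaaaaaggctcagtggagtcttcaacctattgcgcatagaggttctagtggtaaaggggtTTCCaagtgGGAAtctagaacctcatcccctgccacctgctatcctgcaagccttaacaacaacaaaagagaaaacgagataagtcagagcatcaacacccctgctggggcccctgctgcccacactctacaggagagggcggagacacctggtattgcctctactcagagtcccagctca
Cd3e: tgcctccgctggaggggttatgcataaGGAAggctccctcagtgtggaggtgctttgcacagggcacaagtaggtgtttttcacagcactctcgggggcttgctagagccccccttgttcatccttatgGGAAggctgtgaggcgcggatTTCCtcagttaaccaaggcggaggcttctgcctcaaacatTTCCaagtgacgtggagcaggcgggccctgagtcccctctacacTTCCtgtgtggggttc
Cd8a: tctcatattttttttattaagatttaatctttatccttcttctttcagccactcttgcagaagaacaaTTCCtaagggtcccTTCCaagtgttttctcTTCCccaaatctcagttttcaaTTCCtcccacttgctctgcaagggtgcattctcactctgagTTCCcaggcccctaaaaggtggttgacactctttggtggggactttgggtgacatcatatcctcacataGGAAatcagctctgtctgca
The core occurred 6 times before Cd3d, 2 times before Cd3g, 5 times before Cd3e and 6 times before Cd8a. It is a common run of letters: 93.4% of 32817 such windows in the RefSeq table held it on either strand, with a median of 3 matches. The RUNX core TGTGGT, searched on both strands, was in none of these 4 windows and in 14.0% of all windows. A GATA core, AGATAA on either strand, occurred 1 time before Cd3g, in 0 of the other windows shown, and in 9.99% of all windows. The E-box CANNTG occurred 1 time before Cd3d, 3 times before Cd3g, 1 time before Cd3e and 2 times before Cd8a, and in 66.2% of all windows. Without a RUNX match in these 4 windows, an overlap of ETS and RUNX matches could not occur. The matches describe letters and not binding, and with 4 windows nothing can be read from them about the calls. The table also held Cd5, Zap70 and Lck, and had no entry for Cd4, Cd6 or Cd8b1.

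Of the coreceptor genes, Cd4 and Cd8a rose and Cd8b1 did not pass. The brighter Cd4 probe set was 4.82, 4.78 and 4.76 in controls and 5.09, 5.10 and 5.18 in the hydrogen group. The arrays of each group lay close together and far from the other group. This gave a log2 fold change of 0.34 (SE 0.05, adjusted p = 0.00187). The second Cd4 probe set, at a mean log2 value of 3.98, was 3.73, 3.84 and 3.95 in controls and 4.24, 4.03 and 4.10 in the hydrogen group, with a fold change of 0.28 (adjusted p = 0.0181). Both Cd4 probe sets thus gave the same call, but the dimmer lost it under cyclic loess (0.16, adjusted p = 0.132), a second quantile normalisation (0.16, adjusted p = 0.125) and median centring (0.19, adjusted p = 0.072), and without control replicate 1 (0.0591) or hydrogen replicate 1 (0.0614). CD4 is also found on some macrophages and dendritic cells, so its transcript is not a measure of T cells alone.

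Cd8a encodes the alpha chain, which pairs with itself or with the beta chain. Its brightest probe set was 5.02, 5.02 and 5.05 in controls and 5.48, 5.62 and 5.62 in the hydrogen group. The control arrays were almost equal and every hydrogen array was well above them. The log2 fold change was 0.54 (SE 0.06, adjusted p = 0.00045), a 1.46-fold higher level. The other Cd8a probe sets were dimmer and changed less. The second was 3.84, 3.95 and 3.59 in controls and 3.91, 3.98 and 4.04 in the hydrogen group, a log2 fold change of 0.18 (adjusted p = 0.132) with overlapping groups. The third, the dimmest of the 12, was 3.65, 3.41 and 3.65 in controls and 3.74, 3.78 and 3.81 in the hydrogen group (0.21, adjusted p = 0.0503). It just missed the threshold and passed it in 5 of 13 other settings, with adjusted p from 0.0266 to 0.324. Averaged over its probe sets, the log2 fold change of Cd8a was 0.31 (limma adjusted p = 0.00193), against 0.54 for the brightest. Cd8b1, the beta chain that marks the conventional CD8 T cell, was 4.55, 4.24 and 4.02 in controls and 4.27, 4.26 and 4.32 in the hydrogen group. The controls spread over a wider range than the hydrogen arrays, which lay inside it. Its log2 fold change was 0.01 (95% interval -0.25 to 0.28, adjusted p = 0.934), with values of -0.13 after cyclic loess and 0.15 without control replicate 1, neither past the threshold.

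Cd5 and Cd6, the modulators of receptor signalling, rose. Cd6 had the largest change among the 12 probe sets: 4.53, 4.48 and 4.38 in controls against 5.12, 5.24 and 5.13 in the hydrogen group. The gap between the groups was far wider than the spread within them. Cd6 thus had a log2 fold change of 0.70 (SE 0.06, adjusted p = 0.000293), a 1.62-fold higher level. Cd5 was 4.45, 4.20 and 4.46 in controls and 4.86, 4.62 and 4.90 in the hydrogen group, and replicate 2 was the lowest array of each group. Its log2 fold change was 0.42 (SE 0.10, adjusted p = 0.00844), and 0.28 after cyclic loess, where it was not past the threshold (adjusted p = 0.0554). CD5 is carried by a subset of B cells as well.

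Of the kinases only Zap70 was measured by a named probe set, and its signal was low. Zap70 was 3.69, 3.68 and 3.76 in controls and 3.96, 3.89 and 3.88 in the hydrogen group. The groups did not overlap, but all 6 values lay below the median probe set of 4.80. Its rise on the log2 scale was 0.20 (SE 0.05, adjusted p = 0.0178). Cyclic loess gave 0.09 (adjusted p = 0.219), a second quantile normalisation 0.08 (0.255) and median centring 0.11 (0.129), and the call also ended without control replicate 2 (0.055) or hydrogen replicate 1 (0.0625).

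Changes of partner genes were compared within arrays, as the difference between the brightest probe sets of 2 genes, for 6 pairs chosen after the values had been seen. The Cd8a minus Cd8b1 difference was 0.47, 0.78 and 1.03 in controls and 1.21, 1.36 and 1.30 in the hydrogen group. The groups did not overlap, and the mean difference moved by 0.53 (exact two-sided permutation p = 0.1, the smallest these arrays can give, and 0.3 after Benjamini-Hochberg adjustment over the 6 pairs). Cd4 minus Cd8a moved from -0.24 ± 0.05 to -0.45 ± 0.07 (SD, n = 3), with the same exact p of 0.1 and 0.3 after adjustment. Both results rest on the brightest Cd8a probe set, which changed by 0.54, while the other Cd8a probe sets changed by 0.18 and 0.21. Cd4 changed by 0.34, so the size of the first shift and the direction of the second depend on the Cd8a probe set used. Cd3d minus Cd3e was 0.24 ± 0.18 in controls and 0.61 ± 0.23 in the hydrogen group with overlap between them (exact permutation p = 0.2). Cd3d minus Cd3g gave an exact p of 0.3, Cd3g minus Cd3e 1 and Cd5 minus Cd6 0.3. Since this exact test cannot go below 0.1 here, it neither shows nor excludes that partners changed by different amounts.

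Brightness matters for reading these values, since fold changes over the whole array followed it. Probe sets were ranked by their mean log2 value and split into 10 equal classes. Counting from the dimmest, the third class had a median log2 fold change of 0.14, the sixth 0.07 and the eighth -0.18. Probe sets at or below the median level were higher in 32% of cases, and those above it in 16.7%. Of the 12 probe sets of the receptor genes, 6 lay on each side. Among the brighter ones 4 of 6 were higher (Cd3d, Cd4, Cd8a and Cd6), and among the dimmer ones 3 of 6 (Cd4, Cd5 and Zap70). Of the brighter ones, Cd4, Cd8a and Cd6 sat in the sixth class, just above the median, where 35.4% of all probe sets were higher. For them 16.7% is thus too low a share to compare with.

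Against their own brightness class, 11 of the 12 probe sets had a fold change above the class median, with Cd8b1 as the exception. The excess over the class median was largest for Cd3d at 0.66 and Cd6 at 0.63, followed by Cd8a at 0.47 and Cd3e at 0.29. Cd3d and Cd3e sat in the eighth class, where 12.3% of all probe sets were higher. Cd5 exceeded its class by 0.28 and the brighter Cd4 probe set by 0.26. For Zap70, Cd3g and the second Cd8a probe set the excess was 0.06, 0.04 and 0.05. Over the 6 classes that hold these genes, 33% of probe sets were higher.

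**Figure D2:**
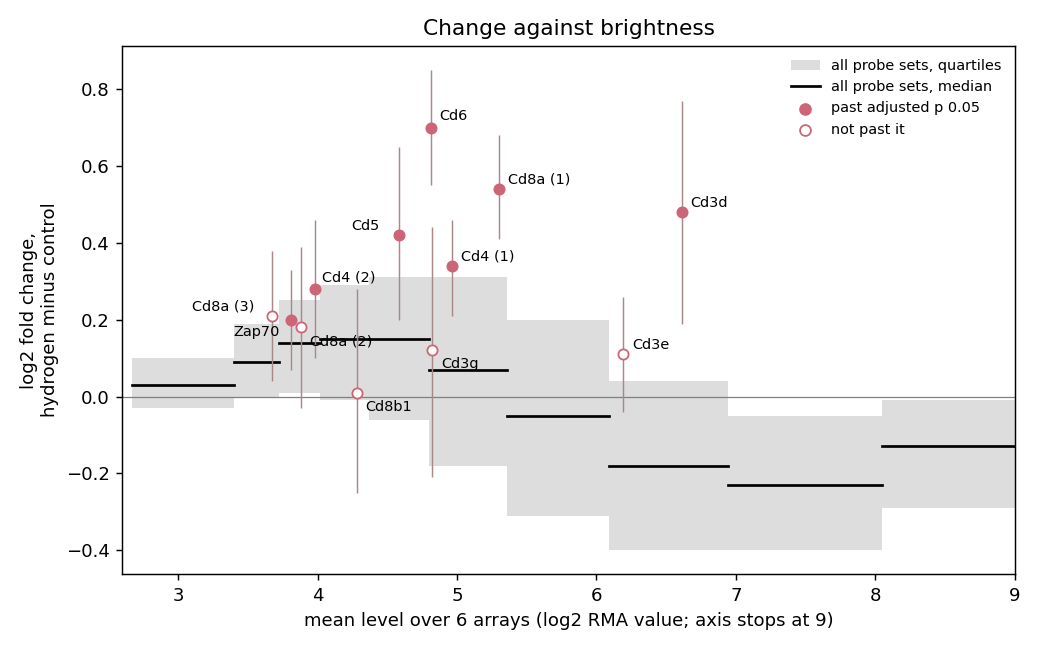
Log2 fold change, hydrogen minus control (vertical axis), against the mean log2 value over 6 arrays (horizontal axis) for the 12 probe sets, with 95% intervals from limma. Grey boxes and black lines give the quartiles and median of all probe sets in each of 10 brightness classes. Cd3d, Cd6 and the brightest Cd8a probe set (0.48, 0.70 and 0.54) lie above the boxes with their whole interval, while Zap70, Cd3g and Cd8b1 lie inside.

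Calls of 4 genes held in every setting tried. Cd6 kept log2 fold changes of 0.58 to 0.73, the brightest Cd8a probe set 0.31 to 0.59, where the lowest is the mean over its probe sets, the brighter Cd4 probe set 0.24 to 0.35 and Cd3d 0.36 to 0.66. Those 4 probe sets passed in all of the 16 alternatives, which include leaving out each array in turn. No alternative called any of the probe sets it tested lower, though the filter on dim probe sets tested 6 and the summaries per gene 9 genes.

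**Figure D3:**
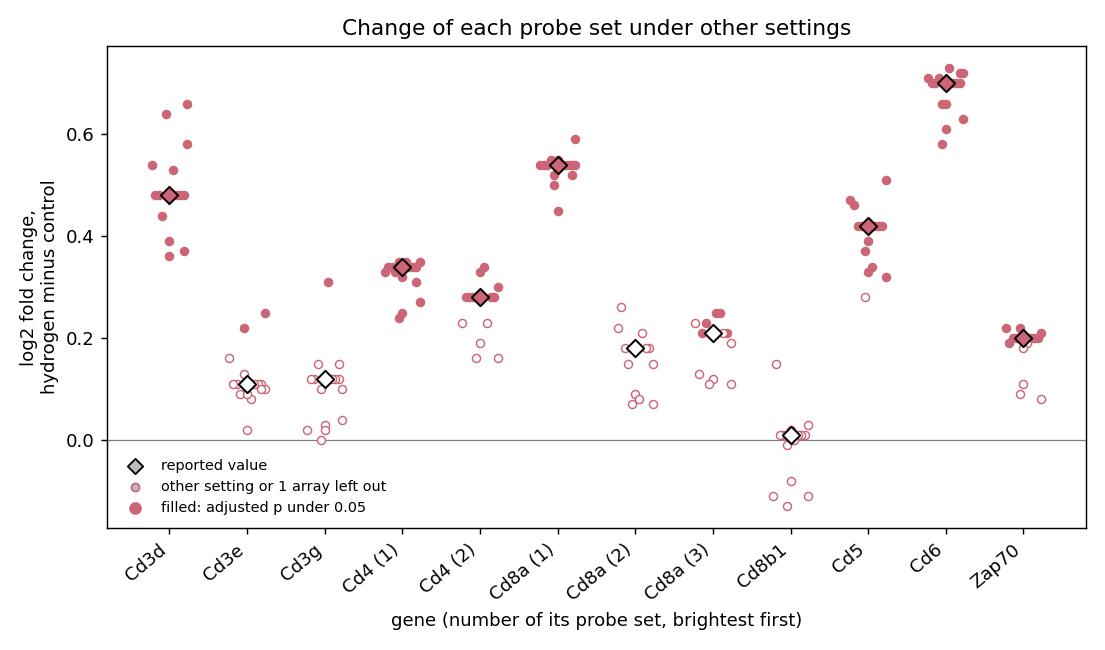
Log2 fold change, hydrogen minus control (vertical axis), of each of the 12 probe sets as reported (diamonds) and under other normalisations, fits and filters or without 1 array (circles). Filled symbols have an adjusted p under 0.05 in limma. Cd3d, Cd6 and the brightest probe sets of Cd4 and Cd8a are filled throughout, Zap70 and the second Cd4 probe set are open in 5 settings each, and Cd8b1 scatters around 0.

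Further genes of the receptor pathway were read from 4 lists, with each gene given by its brightest probe set. Of 60 genes measured, 23 were higher, 10 lower and 27 not past the threshold. That is 38.3% higher, where 25.5% of all 17097 genes were, and 16.7% lower, where 25.9% of all genes were. The median log2 fold change was 0.11. Cyclic loess left 21 higher and 2 lower, and a second quantile normalisation 23 and 2, so few of the lower calls came with those settings. Median centring went the other way, with 19 higher and 13 lower. Lower calls numbered 4 without control replicate 1 and 5 without hydrogen replicate 1 or 2.

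Of the receptor chains, 4 were measured and 2 rose (50%, against 25.5% of all genes). Cd247, the zeta chain that carries most of the signalling motifs, was 5.30, 5.16 and 5.07 in controls and 5.41, 5.57 and 5.54 in the hydrogen group (log2 fold change 0.33, adjusted p = 0.00824). Trbv13-2, a variable segment of the beta chain, rose by 0.39 from a low level (mean log2 value 4.11). Tcra, at a mean log2 value of 3.04 that is among the lowest on the array, had 0.06 and Ptcra 0.16, neither past the threshold.

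Among 23 genes of proximal signalling, 8 rose (34.8%, against 25.5% of all genes) and 5 fell (21.7%, against 25.9%). The largest rises by p were those of Sh2d2a, an adaptor that binds LCK (log2 fold change 0.57), Rhoh, a GTPase needed for ZAP70 recruitment (0.62), and Vav1, an exchange factor for Rac (0.60). Those 3 kept their calls in every setting that included their probe sets. The genes that fell included Bcl10, which links the receptor to NF-kappaB (-0.32), Nfatc3 (-0.25) and the calcineurin gene Ppp3ca (-0.21), bright and widely expressed genes. None of these falls passed after cyclic loess (adjusted p = 0.109, 0.499 and 0.435) or a second quantile normalisation, and that of Ppp3ca was also lost without any of control replicates 1 and 3 and hydrogen replicates 1 and 2. With median centring Bcl10, Nfatc3 and Ppp3ca all stayed lower (-0.41, -0.34 and -0.30, limma adjusted p = 0.000792, 0.00192 and 0.00552). The list had 2 lower genes without control replicate 1 or hydrogen replicate 1 or 2.

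Of 15 genes listed under signal restraint, 5 rose (33.3%, against 25.5% of all genes) and 3 fell (20%, against 25.9%). The list includes Ptprc, although its product is not a restraint alone. Ptprc, the CD45 phosphatase of all leukocytes, was 9.54, 9.60 and 9.43 in controls and 9.95, 10.05 and 9.92 in the hydrogen group (log2 fold change 0.45, adjusted p = 0.00126). Every hydrogen array lay above every control array, at a brightness where the median change of the class was -0.13. The adaptor gene Dok2 (0.61) and Ubash3a (0.34), a phosphatase-like gene of T cells, rose as well. The ubiquitin ligase genes Cbl (-0.38) and Cblb (-0.23) and the phosphatase gene Ptpn22 (-0.31) fell. Under cyclic loess Cbl and Cblb did not pass (adjusted p = 0.0885 and 0.799), while Ptpn22 did (-0.45, adjusted p = 0.00845). With median centring 4 genes of the list were higher and 5 lower, among them Cbl (-0.47), Cblb (-0.32) and Ptpn22 (-0.40). Ptpn22 and Cblb each lost their call on leaving out any of control replicates 1 and 2 and hydrogen replicates 1 and 2, and 1 gene of the list was lower without control replicate 1 or 2 or hydrogen replicate 2.

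Of 18 costimulation and checkpoint genes, 8 rose (44.4%, against 25.5% of all genes) and 2 fell (11.1%, against 25.9%). Of the 18, 11 lay at or below the median probe set, where 32% of all probe sets were higher. The median excess of the list over the brightness class was 0.07. Tnfrsf4, which encodes OX40 (log2 fold change 0.59), Icos (0.47) and Ctla4 (0.41) rose, and kept their calls in every setting that included their probe sets. The adhesion gene Alcam, a CD6 ligand (-0.36), and Cd2 (-0.25) fell. Cd2 was -0.16 after cyclic loess (adjusted p = 0.169), and its call was also lost without any of control replicates 1 and 3 and hydrogen replicates 1 and 3. With median centring Cd2 was -0.34 (limma adjusted p = 0.0113). After cyclic loess 4 of the 18 were higher.

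**Figure D4:**
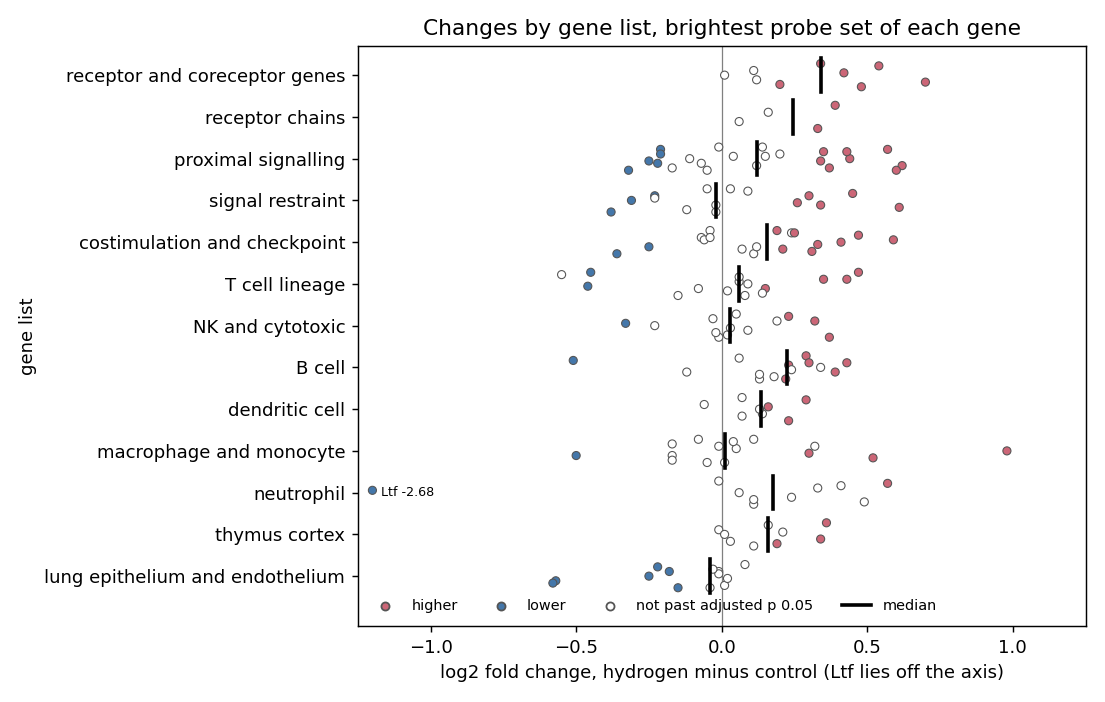
Log2 fold change, hydrogen minus control (horizontal axis), of each gene in 13 lists (vertical axis), with red for higher, blue for lower and open points for genes not past an adjusted p of 0.05. Black bars give list medians, which run from -0.04 for lung epithelium and endothelium to 0.34 for the receptor and coreceptor genes. Ltf, at -2.68, lies off the axis and is drawn at its left edge.

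Of 15 other markers of the T cell lineage, 4 rose, 2 fell and 9 did not pass, with a median log2 fold change of 0.06. That is 26.7% higher, near the 25.5% of all genes, and 13.3% lower, against 25.9% of all genes. The shares of the cell type lists below are to be read against these values. Zbtb7b, the factor that sets the CD4 fate, rose by 0.47 (adjusted p = 0.000873), Themis, needed for thymocyte selection and also in the list of proximal signalling, by 0.43 and Ets1 by 0.35. Ets1 was the brightest gene of the list (mean log2 value 10.1), and which cells gave its value was not tested. The call of Ets1 was lost without hydrogen replicate 1 or 2, where 2 genes of the list were higher. With median centring 3 genes of the list were higher and 4 lower. S1pr1, the receptor for lymphocyte exit that endothelium also expresses, had -0.46 and Gata3 -0.45, both lower. S1pr1 and Gata3 kept these calls in every setting that included their probe sets. The mean of the 15 log2 values was 6.08 to 6.15 on control arrays and 6.07 to 6.16 on hydrogen arrays, so the ranges overlapped.

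Markers of other lymphocytes were read beside the receptor genes. Of 14 B cell markers measured, 6 rose, 1 fell and 7 did not pass (42.9% higher), with a median log2 fold change of 0.22, and the list mean was 5.68 to 5.90 on control arrays and 5.89 to 6.07 on hydrogen arrays. Of the 14, 11 lay above the median probe set. The median excess of the B cell list over the brightness class was 0.26. For the 9 receptor genes, given by their brightest probe sets, it was 0.27. The kinase gene Blk (0.43), the lineage factor gene Pax5 (0.39) and the inhibitory receptor gene Cd22 (0.29) rose and Ebf1 (-0.51) fell. The fall of Ebf1 did not pass under cyclic loess (adjusted p = 0.056) and was -0.60 with median centring (limma adjusted p = 0.00496). The count of B cell genes higher was 3 with median centring and without control replicate 1, control replicate 3 or hydrogen replicate 2. Of 13 natural killer and cytotoxic genes, 3 rose (Tbx21, Prf1 and Klrb1c, 23.1%, near the share of all genes) and Gzmb fell, with a median of 0.03, list means of 5.38 to 5.57 in controls and 5.46 to 5.68 in the hydrogen group, and 0 higher after cyclic loess. Without control replicate 2 or 3 or hydrogen replicate 1, 1 of these genes was higher, and without hydrogen replicate 2, 0. Gzma, the brightest gene of the list, had 0.05 and did not pass (adjusted p = 0.724). The part of these cells in the values of the receptor genes was not tested.

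Of 8 dendritic cell genes, which include a class that carries CD8 alpha, 3 rose and 0 fell (Xcr1 0.29, Batf3 0.23 and Flt3 0.16), or 37.5% higher. The list mean was 4.97 to 5.01 on control arrays and 5.06 to 5.19 on hydrogen arrays, and 1 gene was higher without control replicate 1 or 2 or hydrogen replicate 1, against 5 without hydrogen replicate 3. Xcr1 did not pass under cyclic loess (adjusted p = 0.0633), nor did Flt3 (0.175). The brightest of these genes, Zbtb46, had 0.13 (adjusted p = 0.262) and passed under cyclic loess (0.30, adjusted p = 0.0377), a second quantile normalisation (0.32, 0.0309) and without hydrogen replicate 3 (0.24, 0.026). Of 15 macrophage and monocyte genes, 3 rose (20%) and 1 fell: the Fc receptor gene Fcgr1 (0.98), the chemokine receptor gene Cx3cr1 (0.52) and Lyz1 (0.30) were higher and Mrc1 (-0.50) lower, with list means of 6.86 to 7.02 in controls and 6.99 to 7.08 in the hydrogen group. Mrc1 did not pass under cyclic loess (adjusted p = 0.0663), nor Lyz1 without control replicate 1 or hydrogen replicate 2. Median centring gave -0.59 for Mrc1 (limma adjusted p = 0.00316) and 0.21 for Lyz1 (0.0697). Lyz2, the brightest, had -0.05 (adjusted p = 0.529). Of 10 neutrophil genes Mmp9 rose and Ltf fell, or 10% each way, and 4 were higher after cyclic loess or without hydrogen replicate 3 and 2 without control replicate 2. The list mean was 5.91 to 6.12 in controls and 5.79 to 6.14 in the hydrogen group. Ltf, with a log2 fold change of -2.68, pulls the hydrogen means down, while the median log2 fold change of the list was 0.17. The bright calprotectin gene S100a9 had 0.41 (adjusted p = 0.0935) and passed under cyclic loess (0.57, adjusted p = 0.0419), a second quantile normalisation (0.58, 0.0401), the replicate block (0.41, 0.0117) and without hydrogen replicate 3 (0.56, 0.0423). Their part in the values of Cd4 and Cd8a was not tested.

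Thymus tissue can carry the same transcripts, so its markers were read too. Of 9 measured, Foxn1 (0.36), Dntt (0.34) and Rag2 (0.19) rose and 0 fell, or 33.3% higher. Of the 9, 7 lay at or below the median probe set, where 32% of all probe sets were higher. The 3 that rose were dim, with mean log2 values of 3.99, 4.06 and 3.18, and after cyclic loess 1 of the 9 was higher. The bright protease gene Ctsl, which many tissues express, had -0.01 (adjusted p = 0.931). The list mean was 4.76 to 4.83 in controls and 4.92 to 5.04 in the hydrogen group, and its part in the result was not tested. Of 13 lung epithelium and endothelium genes 0 rose and 6 fell, among them Car4 (-0.57), Foxj1 (-0.58) and Hopx (-0.22). That is 46.2% lower, near the 40.9% of all probe sets in the brightest class, which holds 12 of the 13 genes, and 3 fell without control replicate 3 or hydrogen replicate 3.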

How the data were processed

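Per the labels, total RNA of each lung was amplified, labelled with biotin and hybridised to MG-430 PM Array Strips. The authors deposited 1 log2 value per probe set and array, to 2 decimals, made with RMA in Affymetrix Expression Console, per the submitters' processing notes; the sources used here give no versions and do not say whether all arrays were normalised together. RMA summarises background-corrected probe intensities, which compresses differences between dim values. Of 45141 probe sets, 104 control probe sets were left out. The annotation names 1 gene for 28898 of the rest, several for 551 and none for 15588.

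All 45037 probe sets were fitted with limma 3.58.1 in R 4.3.3 (lmFit, eBayes without trend) on the deposited log2 values, unfiltered, and tested on simulated data first. Genes in lists were given by the probe set with the highest mean. Named genes were the receptor genes and, per list, up to 3 genes with the smallest p in each direction plus, in cell type lists, the brightest. Sftpc, Scgb1a1, Ager and Pecam1 were read for lung identity. Tcra and Ptcra fall outside the rule and were named after their values were seen. The receptor genes and lists were chosen with earlier results of these data known. Alternatives were 3 rescalings, a trended and robust prior, array weights, a filter on dim probe sets, a replicate block, other summaries per gene, a fit free of shared probe sets, and fits without each array in turn. Figures used matplotlib 3.10.9.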

Additional observations from a re-analysis of the deposited data

How the results depend on the processing

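Low signal and the scaling of the arrays limit these results: 6 of the 12 receptor gene probe sets lay at or below the median probe set, and median centring changed the balance of all calls from 10956 higher and 10257 lower to 6377 and 14571. The count of the 12 probe sets called higher was 5 to 8 over the alternatives that kept all of them, and 4 of 6 without dim probe sets. Their median log2 fold change was 0.15 with each array centred on its median, 0.41 without dim probe sets, 0.34 with 1 probe set per gene and 0.31 with the probe sets of each gene averaged, both over 9 genes, and 0.23 to 0.29 on leaving out each array. Pathway genes called lower, 10 as reported, numbered 2 after renewed quantile normalisation, 2 after cyclic loess, 5 with a replicate block and 4 to 9 on leaving out each array. Pathway genes called higher, 23 as reported, numbered 19 with each array centred on its median and 20 to 23 on leaving out each array. Without dim probe sets, a filter that drops genes from the count, 12 of 39 were higher. Over the 8 cell type lists, 23 of 97 genes were higher as reported and 13 with each array centred on its median. The count was 12 of 69 without dim probe sets and 13 to 27 on leaving out each array. In these lists 12 genes were lower as reported and 17 with each array centred on its median. After renewed quantile normalisation 7 were lower, and 10 to 11 on leaving out each array. The dim filter and the summaries per gene also counted fewer probe sets or genes. Why the counts and medians moved was not tested in any setting. The replicate numbers did not pair the arrays: deviations of same-numbered arrays correlated at 0.08, 0.03 and -0.11, and control replicate 2 correlated best with hydrogen replicate 3 (0.11). With the replicate block 7 of the 12 probe sets were higher, as without it, and 9986 of all probe sets were higher and 9791 lower.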
